A study of Homo sapiens with 9 samples.

Results

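Hec50 cells that received a miR-200c mimic were compared with mock-transfected Hec50 cells, as the 3 arrays labelled 200c against the 3 labelled mock, 6 of the 9 arrays of the series. The remaining 3 arrays carry RNA from cells given a scrambled negative control RNA. Hec50 is an established human endometrial cancer cell line, and the study's stated question was which genes miR-200c regulates in an aggressive cancer. The cells grew in DMEM with L-glutamine and fetal bovine serum. The mimic and the scrambled RNA were each given at 60 nM, and RNA was taken after 48 hours. For the mock cells the labels name no RNA and no time of harvest, and they name no transfection reagent for any group. A difference between mimic and mock therefore holds the response to the mimic sequence and the response to transfecting a small RNA together. The scrambled arrays are set beside both groups for many of the genes below, but not for all. A gene given without scrambled values may have changed in the scrambled arrays too. Every array comes from 1 cell line, and the labels do not say whether the 3 replicates of a group were separate cultures, so each p-value weighs a difference against the spread of these arrays alone, and that spread may be technical.

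MicroRNAs of the miR-200 family are made in epithelial cells and pair, mainly through their seed, with sites in the 3′ untranslated regions of messenger RNAs, which lowers the level and the translation of those messages. Their best known targets are ZEB1 and ZEB2, zinc finger repressors that bind E-boxes in promoters of epithelial genes such as CDH1 and that also repress the miR-200 genes themselves, so that each side holds the other down. Poorly differentiated endometrial carcinoma cells often lack the family and express ZEB1.

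The mature sequences of the family, taken from RefSeq on GRCh38.p14 and all on the plus strand, are shown because the seed (bases 2 to 8, in capitals) divides the family into groups with different predicted targets. miR-200c-3p, at chr12:6963742-6963764, shares its seed with miR-200b-3p (chr1:1167160-1167181) and miR-429 (chr1:1169055-1169076). miR-200a-3p (chr1:1167916-1167937) and miR-141-3p (chr12:6964155-6964176) carry the other seed. The opposite arm of the miR-200c hairpin (chr12:6963703-6963724) has a seed unlike either. The labels name the mimic miR-200c without its arm, and the sequence of the scrambled RNA was not used here.
hsa-miR-200c-3p: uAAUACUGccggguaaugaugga
hsa-miR-200b-3p: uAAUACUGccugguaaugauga
hsa-miR-429: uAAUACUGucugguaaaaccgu
hsa-miR-200a-3p: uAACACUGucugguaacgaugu
hsa-miR-141-3p: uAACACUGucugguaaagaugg
hsa-miR-200c-5p: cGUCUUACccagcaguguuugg

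Values below are log2 expression centred on the median of the 9 arrays, so 0 is a gene's own middle value and levels of different genes cannot be compared. A rough level class, on the authors' log2 scale before centring, was recovered from rounding in the deposited numbers: 8 or more, 4 to 8, or below 4. A gene was called when the limma test across all 19775 genes gave a Benjamini-Hochberg adjusted p under 0.05. Replicates differed by an SD of 0.112 to 0.149 (log2) over genes within each pair. The mimic and mock groups stood apart in the 3′ minus 5′ signal of the ACTB control probe sets, a measure of transcript integrity or labelling, which was -0.176 ± 0.027 on mock, 0.016 ± 0.084 on mimic and 0.099 ± 0.036 on scrambled arrays (SD, n = 3 each). The same measure for GAPDH was 0.027 ± 0.035, -0.015 ± 0.035 and 0.007 ± 0.023. The part of this ACTB shift in the results was not tested.

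Between mimic and mock, 3685 of 19775 genes were called (18.6%), 1650 higher (8.34%) and 2035 lower (10.3%). Most changes were small. The median size was 0.27 on the log2 scale among the higher genes (1.21-fold) and 0.281 among the lower ones (1.22-fold). At least 1.5-fold changes were found for 150 higher genes (0.759%) and 151 lower genes (0.764%), and at least 2-fold changes for 34 and 18. The 3 mimic values lay beyond the 3 mock values in 1635 of the 1650 higher and 2019 of the 2035 lower genes. Over all genes, called or not, the mimic arrays lay above every mock array in 16.9% and below every one in 17.6%. Calls were more frequent among strongly expressed genes: 11.5% of 7984 genes at 8 or more were higher and 17.8% lower, against 7.23% and 6.38% of 9338 genes at 4 to 8 and 2.16% and 0.816% of 2452 genes below 4. These shares are the background for the counts over gene lists below. All gene lists and members were chosen with earlier results of these data known, so no list's share is independent evidence. The median change over all genes was 0.011. In the scrambled control against mock, which shares the mock arrays, 537 genes were higher (2.72%) and 1033 lower (5.22%).

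**Figure D1:**
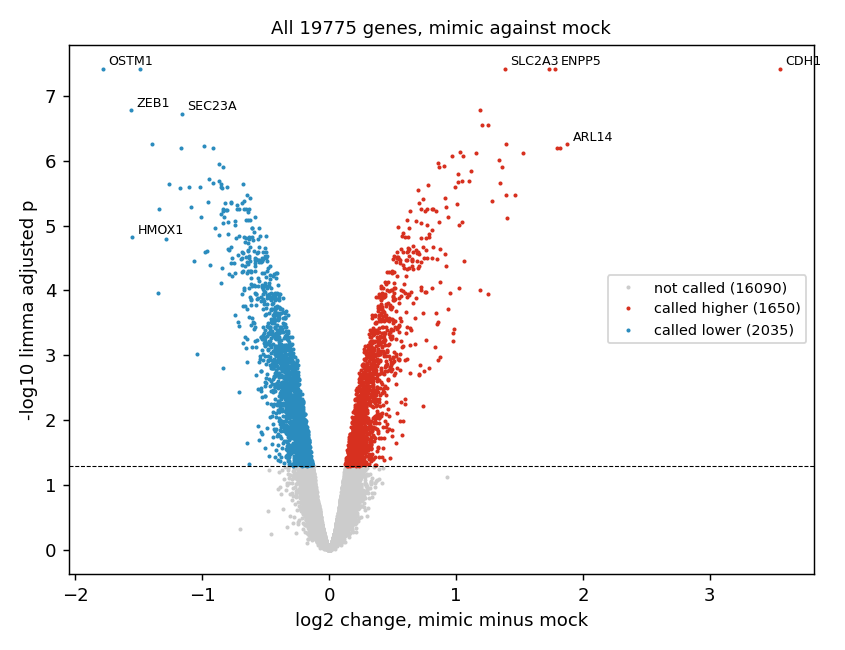
Each point is 1 of 19775 genes, with the log2 change from mock to mimic on the horizontal axis and -log10 of the limma adjusted p on the vertical axis. Red points are the 1650 genes called higher, blue points the 2035 called lower, and the dashed line marks an adjusted p of 0.05; CDH1 lies far to the right of every other gene.

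The largest rise belonged to CDH1, which encodes E-cadherin, the adhesion molecule of epithelial adherens junctions. CDH1 stood at -0.46, -0.14 and -0.27 on the mock arrays, 0.20, -0.19 and 0.00 on the scrambled arrays and 3.44, 3.26 and 3.08 on the mimic arrays. All 3 mimic arrays lay more than 2 log2 units above all 6 others. The change was 3.55 with a standard error of 0.115, or 11.7-fold (limma adjusted p = 3.84e-08). Of its pair of probe sets, the one at a level of 4 to 8 gave 3.55 and the one below 4 gave 0.46, so a plain mean of both would be 2.01. Of the 41 cadherins measured, 4 rose (9.76%) and 3 fell (7.32%), near the 8.34% and 10.3% over all genes. CDH3, or P-cadherin, rose by 0.83 and the desmosomal cadherin DSC2 by 0.62. CDH2, the N-cadherin of mesenchymal and neural cells, was at 0.04, 0.02 and 0.06 on mock and 0.00, -0.07 and -0.12 on mimic arrays, groups that did not overlap, yet it was not called (adjusted p = 0.16). In a pool of cells, a change in all cells and a change in the share of cells that express a gene cannot be told apart.

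EPCAM, an epithelial adhesion glycoprotein used to identify carcinoma cells, followed CDH1 in direction. EPCAM read -0.18, -0.08 and -0.10 on mock, 0.00, 0.06 and -0.04 on scrambled and 1.05, 1.06 and 1.09 on mimic arrays. The mimic arrays formed a tight group clear of the rest, at 2.28-fold over mock (log2 SE 0.0468, limma adjusted p = 1.68e-07). Of 30 tight junction genes, 8 rose (26.7%) and 4 fell (13.3%), beside 8.34% and 10.3% over all genes. CGN, the junction plaque protein cingulin, rose by 0.92 and the tight junction membrane proteins MARVELD3, MARVELD2 and OCLN by 0.87, 0.87 and 0.28. CLDN4 was at 0.05 and was not called. Of 25 polarity and desmosome plaque genes, 8 rose (32.0%) and 2 fell, with a median of 0.10. PPL (periplakin) rose by 1.29, PKP2 (plakophilin) by 0.76, DSP (desmoplakin) by 0.69, LLGL2, a basolateral polarity protein, by 0.34, and JUP (plakoglobin) by 0.28. JUP rests on 1 probe set at a level below 4.

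Genes of apical membrane traffic held several of the largest rises. ARL14, a small GTPase of vesicle transport, was at -0.30, -0.44 and -0.05 on mock, 0.06, 0.00 and -0.05 on scrambled and 1.73, 1.55 and 1.57 on mimic arrays. MAL2, which carries cargo to the apical surface, read -0.35, -0.29 and -0.01 on mock, 0.00, -0.17 and 0.04 on scrambled and 1.61, 1.52 and 1.69 on mimic arrays. For both genes the mimic arrays stood apart, and the mock and scrambled arrays met or nearly met. ARL14 rose 3.67-fold and MAL2 3.54-fold. MAL, a relative of MAL2 with a role in lipid rafts, went the other way, at 0.09, 0.27 and 0.15 on mock and -1.17, -1.22 and -0.94 on mimic arrays, a change of -1.28. Of 24 genes in a list of MAL proteins and apical traffic, 9 rose (37.5%) and 3 fell. Over all genes 8.34% rose and 10.3% fell. The list holds ARL14, MAL2 and the lipid enzyme CDS1, which are among the 12 largest rises. As for every list here, its members were chosen with earlier results of these data known, so its share of rises is not independent evidence. MYO5C, a motor of secretory granules, rose by 0.78. Among 71 RAB and ARL GTPases, 7 rose and 13 fell. RAB17, found in polarized epithelium, rose by 0.42, while RAB25 read 0.00, 0.12 and -0.19 on mock and -0.14, -0.20 and 0.00 on mimic arrays and was not called (adjusted p = 0.493).

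Enzymes and carriers account for other large rises. CDS1, which makes CDP-diacylglycerol for phosphoinositide synthesis, stood at -0.19, -0.16 and 0.00 on mock, 0.00, -0.02 and -0.01 on scrambled and 1.65, 1.57 and 1.63 on mimic arrays. ENPP5, a membrane ectonucleotidase-family protein, stood at -0.61, -0.50 and -0.50 on mock, -0.01, 0.03 and -0.03 on scrambled and 1.17, 1.27 and 1.29 on mimic arrays. The CDS1 arrays of both control groups overlapped, whereas ENPP5 formed 3 separate steps, with the scrambled arrays between mock and mimic and themselves higher than mock by 0.53 (adjusted p = 0.000437). CDS1 rose 3.32-fold and ENPP5 3.44-fold. SLC2A3, the neuronal-type glucose transporter GLUT3, read -0.13, -0.15 and -0.18 on mock and 1.28, 1.20 and 1.23 on mimic arrays and rose 2.61-fold. ST6GALNAC5, a sialyltransferase of gangliosides, rose by 1.39. The transcription-related gene ZBED2 and the long noncoding RNA UCA1 rose by 1.53 and 1.40.

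**Figure D2:**
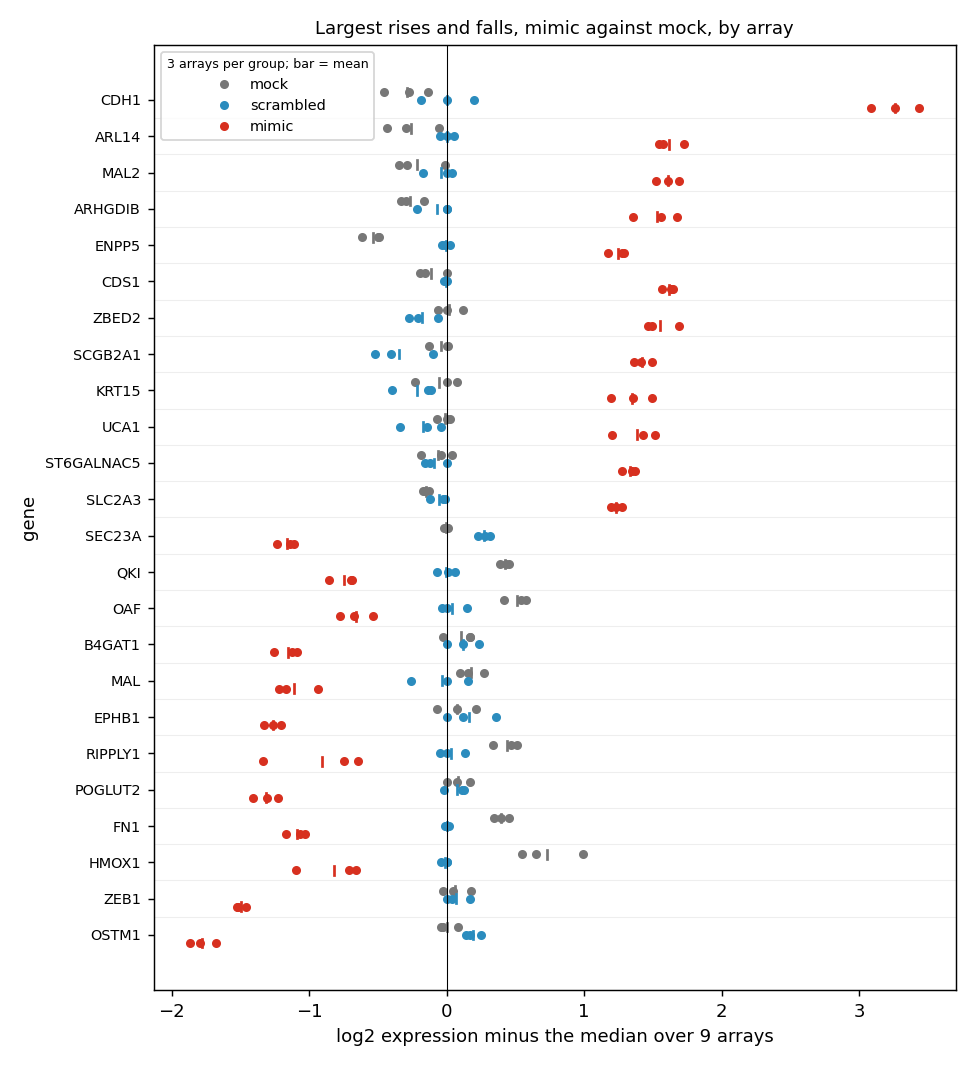
The 12 genes with the largest rises (upper rows) and the 12 with the largest falls (lower rows), with each array as a point on the centred log2 scale and each group mean as a short bar. Mimic arrays (red) are clear of mock arrays (grey) in every row; scrambled arrays (blue) lie between the other groups for ARL14, ENPP5, SLC2A3, FN1, HMOX1, OAF, QKI and RIPPLY1, and on the far side of mock from mimic for ZBED2, OSTM1 and SEC23A.

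Keratins, which build the intermediate filaments of epithelia, mostly did not pass the test: 3 of 44 rose (6.82%) and 0 fell. Over all genes 8.34% were higher and 10.3% lower. Of the 44 keratins 5 had a level of 8 or more. KRT15, a basal keratin, was at 0.00, -0.23 and 0.07 on mock, -0.39, -0.11 and -0.13 on scrambled and 1.5, 1.20 and 1.36 on mimic arrays and rose 2.64-fold, with mimic arrays well apart. KRT18 rose by 0.42. Its partner KRT8 read 0.07, -0.03 and 0.00 on mock, -0.31, -0.13 and -0.30 on scrambled and 0.47, 0.14 and 0.19 on mimic arrays, without overlap between mock and mimic, yet it missed the threshold (adjusted p = 0.0611). Without mimic replicate 2 it passed, at 0.32 (adjusted p = 0.0393). Of 51 mucins, secretoglobins and cornified envelope genes, 7 rose (13.7%) and 1 fell (1.96%). SCGB2A1, the secretoglobin mammaglobin B, rose by 1.46, whereas SCGB1D2, another secretoglobin, fell by 0.42 and was also lower in scrambled than in mock, at -0.35 (adjusted p = 0.0393). SCEL and FLG, proteins of the cornified layer of skin, rose by 0.86 and 0.82, and the mucin MUC1 by 0.48. The epithelial sodium channel subunit SCNN1A rose by 1.20 through 1 of its 3 probe sets, and the mean of all 3 was 0.41. The protease inhibitor SPINT2 rose by 0.35 and the calcium-binding annexin ANXA3 by 1.16.

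The repressors ZEB1 and ZEB2 fell. ZEB1 read -0.02, 0.04 and 0.17 on mock, 0.04, 0.00 and 0.17 on scrambled and -1.51, -1.52 and -1.46 on mimic arrays. The 6 control arrays were mixed and the 3 mimic arrays lay far below them. ZEB1 fell 2.95-fold (log2 SE 0.0621, limma adjusted p = 1.68e-07), and all 4 of its probe sets were called lower, where 8.45% of all probe sets were lower and 6.25% higher. ZEB2 had a gene value of 0.15, 0.18 and 0.18 on mock, -0.03, -0.13 and 0.22 on scrambled and -0.21, -0.25 and -0.29 on mimic arrays, a fall of 0.42 with no overlap between mock and mimic. That value averages probe sets that disagreed: of 5, those at -0.85 and -1.15 were called lower, and those at 0.16, 0.16 and 0.07 were not called. Probe set names ending in _x_at, _s_at or _a_at can mark probes shared by more than 1 transcript, of the same gene or of others. Without such probe sets ZEB2 was at -0.18 and was not called (limma adjusted p = 0.0934). In all, 5 of 17 repressors of the epithelial state fell (29.4%) and 1 rose (5.88%), beside 10.3% and 8.34% over all genes. SOX4 and SOX9, transcription factors of progenitor cells, fell by 0.31 and 0.29. The forkhead factor FOXQ1 was the gene that rose, by 0.24, a call lost in 4 of the 6 fits that left out 1 array (adjusted p up to 0.156) and under quantile normalization (adjusted p = 0.068).

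Among 16 epithelial transcription and splicing factors, 5 rose (31.2%) and 0 fell, beside 8.34% and 10.3% over all genes. KLF5 and KLF4, zinc finger factors of epithelia, rose by 0.65 and 0.51, and OVOL2, which represses ZEB1 in epithelial cells, by 0.62. ESRP1, which directs epithelial exon choice, was at 0.03, 0.00 and -0.43 on mock, -0.06, -0.02 and 0.00 on scrambled and 0.29, 0.22 and 0.44 on mimic arrays, a rise of 0.45. Its mimic arrays lay above the other 6, and without mimic replicate 3 the call was lost (change 0.39, adjusted p = 0.0524). GRHL2, a grainyhead activator of CDH1, had a level below 4 and read 0.00, 0.03 and -0.09 on mock and -0.15, 0.00 and 0.00 on mimic arrays, values that overlapped (adjusted p = 0.826). VIM, the intermediate filament of mesenchymal cells, fell by 0.35, from 0.13, 0.11 and 0.14 on mock to -0.18, -0.28 and -0.22 on mimic arrays.

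Published targets of the miR-200 family, a list compiled from the literature with some entries chosen in cells of this kind, fell more often than they rose. Of 67 measured, 34 fell (50.7%) and 4 rose (5.97%), with a median change of -0.19. SEC23A, the COPII coat protein of transport from the endoplasmic reticulum, stood at 0.00, -0.02 and 0.01 on mock, 0.23, 0.28 and 0.32 on scrambled and -1.11, -1.14 and -1.23 on mimic arrays. The scrambled arrays were the highest, 0.28 above mock (adjusted p = 0.00706), and the mimic arrays fell 2.24-fold below mock. QKI, an RNA-binding regulator of splicing, stood at 0.39, 0.43 and 0.46 on mock, 0.06, -0.07 and 0.01 on scrambled and -0.69, -0.70 and -0.85 on mimic arrays. For QKI the scrambled arrays lay between, at -0.43 against mock (adjusted p = 0.00217), and 8 of its 10 probe sets were called lower in mimic. ZCCHC24, a zinc finger protein, fell by 1.09 and the actin-severing cofilin CFL2 by 0.87. Of the 67 genes 49 had a level of 8 or more, a class in which 17.8% of all genes were lower, and a list drawn in part from such cells is not independent evidence of its direction.

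Other genes among the largest falls are not on that list. OSTM1, which anchors a chloride transporter in lysosomes and bone-resorbing cells, was at -0.04, -0.02 and 0.08 on mock, 0.17, 0.14 and 0.25 on scrambled and -1.87, -1.67 and -1.80 on mimic arrays. It had the largest fall of any gene, 3.44-fold (log2 SE 0.0599, limma adjusted p = 3.84e-08), with its 3 mimic arrays clear of all others and all 4 probe sets called lower. POGLUT2, an endoplasmic reticulum enzyme that adds glucose to EGF-like repeats, read 0.00, 0.07 and 0.17 on mock and -1.22, -1.41 and -1.31 on mimic arrays. EPHB1, a receptor for ephrin-B ligands, read -0.07, 0.08 and 0.21 on mock and -1.26, -1.21 and -1.33 on mimic arrays. POGLUT2 fell by 1.40 and EPHB1 by 1.34, with no overlap in either. B4GAT1, which builds the sugar chain through which dystroglycan binds laminin, fell by 1.26 through 1 of its 2 probe sets, the other being at 0.03. RIPPLY1, a transcription corepressor of somites, and OAF fell by 1.35 and 1.18.

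Promoters were searched because ZEB proteins bind the E-box core CAGGTG, whose reverse complement is CACCTG. Both runs of letters were counted in the 250 bases before a start in the RefSeq promoter table on GRCh38.p14, which holds 15384 of the tested genes. For a gene with several starts in the table the outermost was taken, which can still lie inside the gene. Of these genes 2588 had at least 1 match (16.8%), against 254 of 1309 called higher (19.4%) and 243 of 1691 called lower (14.4%). Among genes at least 1.5-fold higher the share was 33 of 115 (28.7%), and among those at least 1.5-fold lower it was 15 of 123 (12.2%). The median GC content was 62.4% over all promoters, 61.2% for the former and 69.6% for the latter. A match is a run of letters and not a measured binding site. Of the 12 largest rises 6 had a promoter in the table and 2 of these had a match, that of CDS1 lying 27 bases before its start. Of the 12 largest falls 8 had a promoter, and 1 of these, ZEB1 itself, had a match, 57 bases before its start.

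At least 2 matches were present in 2.21% of all promoters and in 7 of the 115 genes that rose at least 1.5-fold (6.09%), which were PTPRR, ELOVL7, MISP, DSP, EPSTI1, MAPK13 and MAP7. The promoters of CDS1 (chr4:84582877-84583126, plus strand), PTPRR (chr12:70788921-70789170, minus strand), ELOVL7 (chr5:60844270-60844519, minus strand), MISP (chr19:750862-751111, plus strand) and DSP (chr6:7541421-7541670, plus strand) are shown with the matches in capitals, 5′ to 3′ along the gene, to display their number and spacing. In PTPRR, a receptor-type tyrosine phosphatase, they begin 128 and 39 bases before the start. In ELOVL7, an elongase of long fatty acids, they begin 100 and 37 bases before the start. In MISP, an actin-bundling protein of the mitotic spindle, they begin at 206, 92 and 67, and in DSP at 178 and 85. PTPRR, MISP, EPSTI1, MAPK13 and MAP7 rose by 0.93, 0.70, 0.64, 0.61 and 0.59.
CDS1: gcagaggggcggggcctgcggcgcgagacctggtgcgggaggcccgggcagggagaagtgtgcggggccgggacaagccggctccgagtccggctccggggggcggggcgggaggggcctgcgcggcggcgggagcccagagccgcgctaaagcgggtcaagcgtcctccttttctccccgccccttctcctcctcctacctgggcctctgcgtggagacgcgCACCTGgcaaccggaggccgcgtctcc
PTPRR: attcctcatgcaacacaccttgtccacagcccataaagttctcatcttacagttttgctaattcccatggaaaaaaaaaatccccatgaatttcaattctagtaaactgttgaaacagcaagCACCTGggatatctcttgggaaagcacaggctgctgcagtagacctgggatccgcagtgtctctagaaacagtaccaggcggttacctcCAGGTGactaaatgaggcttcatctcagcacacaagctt
ELOVL7: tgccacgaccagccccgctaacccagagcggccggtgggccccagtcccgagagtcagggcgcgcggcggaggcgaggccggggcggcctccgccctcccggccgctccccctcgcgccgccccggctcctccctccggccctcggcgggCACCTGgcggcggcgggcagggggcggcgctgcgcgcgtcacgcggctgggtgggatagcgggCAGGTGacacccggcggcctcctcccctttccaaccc
MISP: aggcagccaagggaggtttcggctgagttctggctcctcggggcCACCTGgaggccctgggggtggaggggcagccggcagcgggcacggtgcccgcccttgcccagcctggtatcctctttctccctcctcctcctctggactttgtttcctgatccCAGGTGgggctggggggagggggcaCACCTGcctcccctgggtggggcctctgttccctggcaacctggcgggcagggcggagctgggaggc
DSP: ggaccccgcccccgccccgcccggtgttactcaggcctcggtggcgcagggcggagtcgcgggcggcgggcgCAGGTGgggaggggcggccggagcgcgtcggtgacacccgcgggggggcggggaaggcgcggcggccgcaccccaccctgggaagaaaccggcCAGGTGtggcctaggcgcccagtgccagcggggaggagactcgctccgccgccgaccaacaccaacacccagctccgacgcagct

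Matrix genes changed in both directions, with more falls. FN1, or fibronectin, the adhesive matrix protein of mesenchymal cells, stood at 0.35, 0.40 and 0.45 on mock, 0.00, 0.01 and -0.01 on scrambled and -1.07, -1.17 and -1.03 on mimic arrays. Its 7 probe sets divided into 5 called lower and 2 at -0.07 and -0.44, not called. Without those whose names end in _x_at, _s_at or _a_at FN1 was at -0.26 (limma adjusted p = 0.133). The groups formed 3 steps without overlap, scrambled being at -0.40 against mock (adjusted p = 0.00163) and mimic 2.81-fold lower (log2 SE 0.0501, adjusted p = 3.84e-08). Of 47 matricellular and fibrillar matrix genes, 13 fell (27.7%) and 4 rose (8.51%), and 13 were lower in scrambled than in mock. Over all genes 10.3% fell and 8.34% rose in mimic, and 5.22% were lower in scrambled. LOX, which crosslinks collagen, fell by 0.67 in mimic and was at -0.43 in scrambled against mock (adjusted p = 0.00576). CRTAP, which takes part in the hydroxylation of collagen prolines, fell by 0.99. EFEMP1 (fibulin) and LOXL3 rose by 1.02 and 0.70. Of 43 collagens 10 fell and 4 rose: COL6A3, a chain of the microfibrillar collagen VI, fell by 0.64, while COL24A1 and COL12A1 rose by 0.71 and 0.47. In scrambled against mock COL6A3 was at -0.36 (adjusted p = 0.00668, limma), and COL24A1 and COL12A1 were not called. Proteases and their inhibitors were divided as well, with MMP10, a stromelysin, up by 0.99, and TIMP2 and ADAMTS9 down by 0.71 and 0.65. In scrambled against mock TIMP2 was at -0.34 (adjusted p = 0.00624, limma), and MMP10 and ADAMTS9 were not called. The serpins SERPINE2 and SERPINH1, the latter a collagen chaperone, fell by 0.80 and 0.61. Both were also lower in scrambled than in mock, at -0.34 and -0.34 (adjusted p = 0.00556 and 0.0144, limma).

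Basement membrane chains and their integrin receptors also diverged by gene. LAMB3, the beta chain of the epidermal laminin, read 0.03, 0.00 and -0.04 on mock, -0.29, -0.38 and -0.40 on scrambled and 1.09, 0.96 and 1.02 on mimic arrays and rose 2.04-fold. Its scrambled arrays were the lowest, at -0.35 against mock (adjusted p = 0.00345). LAMC1 and LAMB2 fell by 0.55 and 0.40. In all 3 of 17 genes rose and 6 fell. Of 25 integrins 4 rose and 3 fell. ITGB8, which activates latent TGF-beta, and ITGB5 rose by 0.84 and 0.39, whereas ITGA3, a laminin receptor, and ITGB3 fell by 0.65 and 0.37. In scrambled against mock ITGA3 and ITGB3 were at -0.31 and -0.22 (adjusted p = 0.0128 and 0.04, limma). ITGB8 and ITGB5 were not called there.

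The proteoglycan side of the surface showed falls and no called rise among syndecans, glypicans and related carriers, at 5 of 13 (38.5%). Over all genes 10.3% were lower. CD44, the hyaluronan receptor, read 0.51, 0.53 and 0.62 on mock, -0.05, -0.08 and 0.05 on scrambled and -0.05, -0.13 and -0.14 on mimic arrays. The scrambled and mimic arrays met below mock, -0.58 and -0.66 from it, so most of the difference from mock was present in the scrambled arrays too. Of its 13 probe sets 9 were called lower in mimic. TGFBR3, a co-receptor for TGF-beta, fell by 0.51 and was at 0.07 in scrambled against mock. GPC6 fell by 0.39 and GPC4 by 0.48. Of 58 enzymes for heparan, chondroitin and dystroglycan glycans, 16 fell (27.6%) and 5 rose. HS6ST2 and HS3ST3B1, heparan sulfotransferases, fell by 0.77 and 0.59, although HS3ST3B1 was higher in scrambled than in mock, by 0.44 (adjusted p = 0.00256). Of 82 genes for protein N- and O-glycans and their caps, 11 rose and 15 fell, with the fucosyltransferase FUT9 down by 0.74 and the mucin-type initiator GALNT6 up by 0.51.

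Cytoskeletal genes fell more often than they rose. Of 47 actomyosin genes 14 fell (29.8%) and 2 rose, and of 54 actin assembly genes 14 fell (25.9%) and 7 rose, beside 17.8% lower among all genes at a level of 8 or more, which held most of both lists. ARPC1A, a subunit of the ARP2/3 complex that branches actin, stood at 0.03, 0.00 and 0.09 on mock, -0.04, 0.07 and 0.01 on scrambled and -0.83, -0.90 and -0.99 on mimic arrays. The mimic arrays alone stood apart, 1.92-fold lower than mock. ZYX (zyxin), of focal adhesions, read 0.63, 0.58 and 0.56 on mock, 0.00, 0.04 and -0.01 on scrambled and -0.09, -0.25 and -0.21 on mimic arrays, and here the scrambled arrays had moved most of the way, by -0.58 of a total of -0.77. MSN (moesin), a linker of actin to the membrane, fell by 0.68 in 1 of its 2 probe sets, the other being at 0.14. WIPF1 and TPM2 fell by 0.59 and 0.42.

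The beta-tubulin genes TUBB3 and TUBB4A were lower in both transfected groups. Of 38 tubulins and microtubule-associated genes 11 fell (28.9%) and 4 rose, and 7 were lower in scrambled than in mock. Of the 38 genes 22 had a level of 8 or more, where 17.8% of all genes fell. TUBB3, the class III beta-tubulin of neurons that is linked to resistance to taxanes, was at 0.28, 0.22 and 0.31 on mock, -0.05, -0.01 and -0.06 on scrambled and 0.08, -0.09 and -0.04 on mimic arrays. Its scrambled and mimic arrays overlapped, and both groups lay below mock, at -0.31 and -0.28 (adjusted p = 0.0071 and 0.00347, limma). TUBB4A fell by 1.01 in mimic and was at -0.53 in scrambled against mock (adjusted p = 0.0024). MAP7 and MAP2, which stabilize microtubules, rose by 0.59 and 0.53. Of 59 kinesins and dyneins 5 rose (8.47%) and 3 fell (5.08%), beside 8.34% and 10.3% over all genes.

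Endomembrane genes showed falls in the lysosome. Of 58 lysosome and V-ATPase genes 18 fell (31.0%) and 5 rose, with a median of -0.047, and 10 were lower in scrambled than in mock. Of the 58 genes 36 had a level of 8 or more, where 17.8% of all genes were lower and 11.5% higher in mimic. NPC1, which exports cholesterol from lysosomes, fell by 0.57 through 1 of its 4 probe sets, the mean of all being -0.20. The protease CTSD fell by 0.50 and the sialidase NEU1 by 0.43. Of 31 COPII, COPI and retromer coat genes 4 rose and 4 fell. SEC24A, the cargo adaptor that partners SEC23A, read -0.08, 0.00 and 0.03 on mock, -0.52, -0.75 and -0.52 on scrambled and 0.28, 0.45 and 0.34 on mimic arrays. Its scrambled arrays were the lowest and its mimic arrays the highest, opposite in order to SEC23A. Of 69 phosphoinositide kinases and phosphatases 16 fell (23.2%) and 6 rose. PLCG1, which cleaves PIP2 downstream of growth factor receptors, fell by 0.64, the kinase PIP4K2A by 0.63 and the phosphatase INPP4A by 0.62, and scrambled against mock these were at -0.03, -0.02 and -0.09, none of them called.

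**Figure D3:**
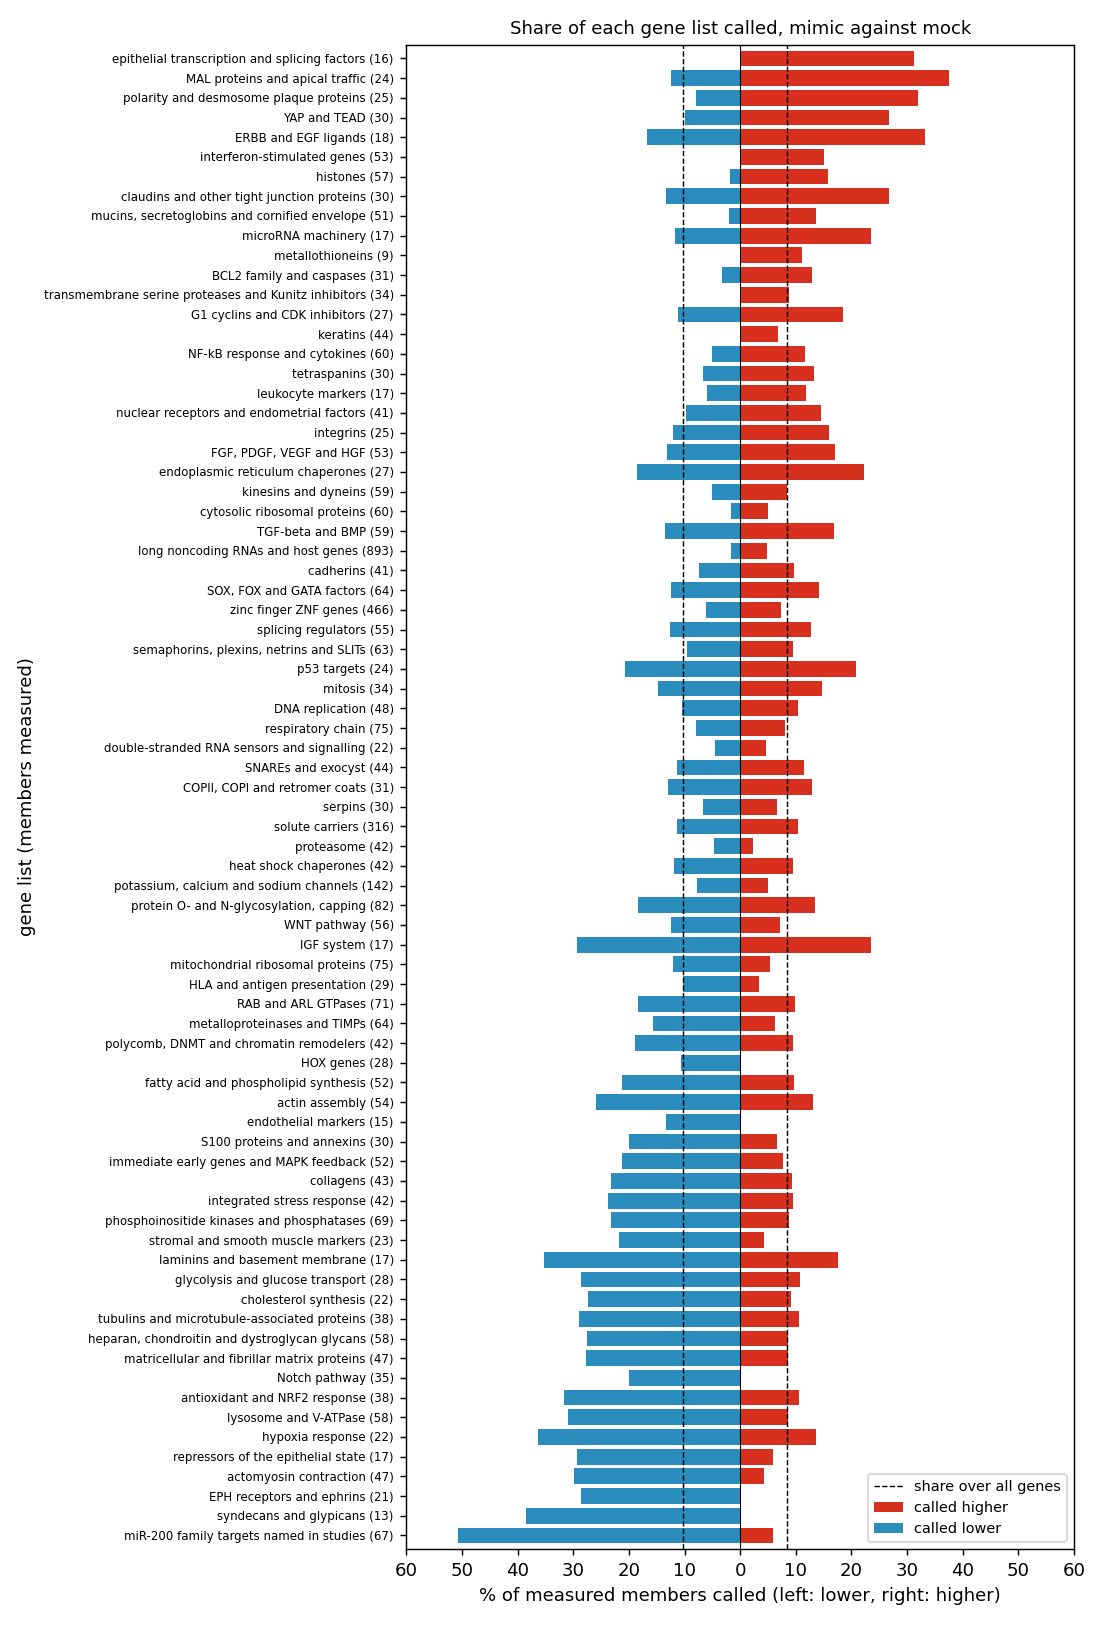
Each row is a gene list with its number of measured members, and the bars give the percentage of members called lower (blue, to the left) or higher (red, to the right) in mimic than in mock. Dashed lines mark the shares over all genes, 10.3% lower and 8.34% higher; lists share members, and the longest blue bar is that of the published miR-200 targets at 50.7%.

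Signalling lists held different numbers of rises and falls, and whether they differ from their background was not tested. Over all genes 10.3% fell and 8.34% rose. Among all genes at a level of 8 or more 17.8% fell and 11.5% rose. Of 35 Notch pathway genes 7 fell and 0 rose, and 17 of the 35 had a level of 8 or more. The EPH, ERBB and IGF lists below held 7, 9 and 12 genes of that level. NOTCH3 stood at 0.25, 0.32 and 0.23 on mock, 0.00, 0.12 and -0.09 on scrambled and -0.55, -0.91 and -0.67 on mimic arrays and fell 1.97-fold, with mimic arrays apart from the rest and scrambled a little below mock. NOTCH1, the glycosyltransferase LFNG and the target gene HEY1 fell by 0.44, 0.57 and 0.46. Of 21 EPH receptors and ephrins 6 fell (28.6%) and 0 rose, with EFNB2 down by 0.31 while at 0.23 in scrambled against mock. Of 18 ERBB receptors, EGF ligands and regulators 6 rose (33.3%) and 3 fell. The ligands TGFA, BTC and EREG rose by 0.45, 0.39 and 0.34. In the IGF system 4 of 17 genes rose (23.5%) and 5 fell (29.4%), IGF1R, the receptor, rising by 0.74 and the binding protein IGFBP2 falling by 0.68.

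Genes of TGF-beta and BMP signalling were divided, 10 of 59 higher (16.9%) and 8 lower (13.6%), beside 8.34% and 10.3% over all genes. INHBB, a subunit of inhibins and activins, stood at 0.00, -0.04 and 0.02 on mock, -0.07, -0.31 and -0.13 on scrambled and 1.11, 1.01 and 1.16 on mimic arrays and rose 2.15-fold, mimic arrays being clear of both other groups. TGFB2 rose by 0.59. TGFB1 read 0.53, 0.44 and 0.46 on mock, -0.09, -0.21 and 0.00 on scrambled and 0.08, -0.16 and -0.06 on mimic arrays. Its scrambled and mimic arrays overlapped below mock, at -0.58 and -0.52 against it, through 1 of the 2 probe sets. With probe sets ending in _x_at, _s_at or _a_at left out, TGFB1 was at -0.03 (limma adjusted p = 0.855). The co-receptor ENG fell by 0.61. Of 56 WNT genes 4 rose and 7 fell, with the receptor FZD5 up by 0.69 through 1 of its 2 probe sets and the receptor ROR2 at -0.55. With the same name endings left out, FZD5 was at 0.14 and was not called (limma adjusted p = 0.31). Of 30 YAP and TEAD genes 8 rose (26.7%) and 3 fell (10.0%). Of the 30 genes 24 had a level of 8 or more, where 11.5% of all genes were higher. ANKRD1, a common readout of YAP activity, rose 2.38-fold and the tissue factor gene F3 by 0.55, while PTPN14, which restrains YAP, fell by 0.58. The axon guidance ligand NTN4 and the teneurin TENM2 rose by 1.35 and 1.19, and SLIT2 fell by 0.57. The receptor tyrosine kinases KIT and NTRK2 were at 0.58 and -0.61, both called.

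Oxidative stress genes of the NRF2 programme fell more often than they rose, at 12 of 38 (31.6%) against 4 (10.5%). Of the 38 genes 32 had a level of 8 or more, where 17.8% of all genes were lower and 11.5% higher. HMOX1, the inducible heme oxygenase, whose level class could not be placed, read 0.65, 0.54 and 0.99 on mock, -0.04, 0.00 and 0.00 on scrambled and -0.66, -0.71 and -1.09 on mimic arrays. The groups formed 3 steps, with scrambled at -0.74 against mock (adjusted p = 0.00627) and mimic 2.93-fold below mock (log2 SE 0.124, adjusted p = 1.51e-05). The enzymes UGDH and ME1 fell by 0.49 and 0.44 and were at -0.08 and 0.09 in scrambled against mock. MAFF and BACH1, a partner and a repressor at the same response element, rose by 0.63 and 0.50.

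The integrated stress response, through which ATF4 raises amino acid and survival genes, showed a different order of the groups. Of 42 genes 10 were lower (23.8%) and 4 higher (9.52%) in mimic than in mock, while in scrambled 17 were lower and 0 higher. Of the 42 genes 37 had a level of 8 or more, where 17.8% of all genes were lower and 11.5% higher in mimic. Over all genes 5.22% were lower in scrambled than in mock. GDF15, a stress cytokine of the TGF-beta family, stood at 0.44, 0.50 and 0.49 on mock, -0.40, -0.44 and -0.32 on scrambled and 0.04, 0.00 and -0.15 on mimic arrays. The scrambled arrays were the lowest, -0.86 from mock, and the mimic arrays lay between, at -0.51, with 1 of 3 probe sets called. Without probe sets ending in _x_at, _s_at or _a_at GDF15 was at -0.07 in mimic against mock (limma adjusted p = 0.455). VLDLR and the serine enzyme PSAT1 fell by 0.82 and 0.42, and CTH, which makes cysteine, rose by 0.72. In scrambled against mock VLDLR, PSAT1 and CTH were at -0.16, -0.09 and 0.16, none of them called, so they did not share the order of GDF15. VLDLR rests on 1 probe set at a level below 4. Of 27 endoplasmic reticulum chaperone genes 6 rose and 5 fell, among them the disulfide isomerase P4HB by 0.33. P4HB was also lower in scrambled than in mock, at -0.29 (adjusted p = 0.00782, limma). Of 42 heat shock genes 4 rose and 5 fell. HSP90AB1, the constitutive cytosolic HSP90, was at 0.04, 0.07 and 0.08 on mock, -0.07, 0.01 and 0.00 on scrambled and -0.81, -0.85 and -0.88 on mimic arrays, 1.88-fold lower in mimic, and each of its 3 probe sets was called lower.

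Interferon-stimulated genes were higher in mimic than in mock in 8 of 53 (15.1%) and lower in 0, whereas in scrambled 1 was higher and 10 were lower. Over all genes 8.34% were higher and 10.3% lower in mimic, and 2.72% higher and 5.22% lower in scrambled. IRF9, the DNA-binding part of the interferon-activated complex, read -0.05, 0.00 and 0.00 on mock, -0.46, -0.59 and -0.79 on scrambled and 0.56, 0.15 and 0.28 on mimic arrays. EPSTI1, an interferon-induced gene of epithelial-stromal contact, read -0.14, 0.00 and 0.02 on mock, -0.26, -0.49 and -0.53 on scrambled and 0.65, 0.46 and 0.69 on mimic arrays. In both, scrambled lay below mock and mimic above it, with no overlap, and the IRF9 call was lost in 5 of the 6 fits that left out 1 array (adjusted p up to 0.11) and under quantile normalization (adjusted p = 0.246). GBP3 and GBP1, interferon-induced GTPases, rose by 0.79 and 0.53 in mimic, and in scrambled against mock they were at 0.34 (adjusted p = 0.0099) and 0.17 (adjusted p = 0.163). Of 22 sensors and adaptors of double-stranded RNA 1 rose and 1 fell: IFIH1, the sensor MDA5, was at 0.37 and the kinase TBK1 at -0.21. The TBK1 call was lost in 5 of the 6 fits that left out 1 array (adjusted p up to 0.113) and under quantile normalization (adjusted p = 0.0529). Of 60 NF-kB response and cytokine genes 7 rose and 3 fell. The neutrophil chemokines CXCL8 and CXCL1 rose by 0.81 and 0.57, and CXCL12 fell by 0.74.

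Of 28 glycolysis and glucose transport genes 8 fell (28.6%) and 3 rose, and of 22 hypoxia response genes 8 fell (36.4%) and 3 rose. Most members of these lists and of the lipid lists had a level of 8 or more, where 17.8% of all genes were lower. ENO2 and PKM, glycolytic enzymes, fell by 0.68 and 0.37, the hypoxia genes NDRG1 and CA12 by 0.50 and 0.49. In scrambled against mock ENO2 was at -0.50 (adjusted p = 0.0116, limma), and PKM, NDRG1 and CA12 were not called. Of 52 genes of fatty acid and phospholipid synthesis 11 fell (21.2%, near that background) and 5 rose. SCD and FASN, which desaturate and build fatty acids, fell by 0.48 and 0.44, and were lower in scrambled than in mock, at -0.40 and -0.42 (adjusted p = 0.00792 and 0.0184, limma). ELOVL7, one of the genes with a pair of E-box matches shown above, stood at 0.00, -0.03 and 0.20 on mock, -0.64, -0.57 and -0.52 on scrambled and 0.95, 0.97 and 1.01 on mimic arrays, the scrambled arrays being the lowest and the mimic arrays the highest. Of 22 cholesterol synthesis genes 6 fell (27.3%) and 2 rose. Among 316 solute carriers 33 rose (10.4%) and 36 fell (11.4%), near the 8.34% and 10.3% over all genes. The amino acid exchanger subunit SLC7A7 was at 1.02 and the organic anion carrier SLC17A3 at -1.06.

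Proliferation genes were called in both directions. Of 34 mitosis genes 5 rose and 5 fell (14.7% each), and of 48 replication genes 5 and 5 (10.4% each). Of these lists 33 and 47 genes had a level of 8 or more, where 11.5% of all genes were higher and 17.8% lower. Of 27 G1 cyclins and CDK inhibitors 5 rose (18.5%) and 3 fell (11.1%). CDK2, a kinase of entry into S phase, was at 0.42, 0.29 and 0.31 on mock, 0.00, -0.11 and 0.08 on scrambled and -0.53, -0.45 and -0.39 on mimic arrays and fell 1.74-fold, with scrambled between the other groups at -0.35 (adjusted p = 0.00846). The phosphatase CDC25B fell by 0.67 and its relative CDC25A rose by 0.49. Of 24 p53 targets 5 rose and 5 fell (20.8% each). PMAIP1, the BH3-only death protein NOXA, fell by 0.85, and BIK, of the same class, rose by 0.64. Histone genes rose in 9 of 57 (15.8%, beside 8.34% over all genes) and fell in 1, with the linker histone H1-2 at 0.33.

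Large housekeeping complexes had few calls. Of 60 cytosolic ribosomal protein genes 3 rose and 1 fell, of 42 proteasome genes 1 rose and 2 fell, and of 75 respiratory chain genes 6 rose and 6 fell. These shares stand beside 11.5% higher and 17.8% lower over all genes at a level of 8 or more, the class that holds most of these genes. Their medians were 0.006, 0.015 and -0.007. Among 466 zinc finger ZNF genes 34 rose (7.3%) and 29 fell (6.22%), below the 8.34% and 10.3% over all genes. ZNF165, a gene of testis, had the largest change in this list at 1.25. Of 893 long noncoding RNAs and host genes 43 rose (4.82%) and 14 fell (1.57%), also below the shares over all genes. Of the 893 genes 60 had a level of 8 or more. LINC01127 and LINC00472 rose by 0.86 and 0.75.

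Genes of the microRNA pathway included DICER1, the nuclease that cuts precursors to mature microRNAs. DICER1 stood at -0.58, -0.56 and -0.52 on mock, -0.02, 0.07 and -0.01 on scrambled and 0.30, 0.33 and 0.42 on mimic arrays. The groups formed 3 steps without overlap, scrambled 0.56 above mock (adjusted p = 0.000312) and mimic 0.90 above mock (adjusted p = 1.23e-06). Of its 6 probe sets 4 were called higher and none lower. Of 17 genes of this pathway 4 rose (23.5%) and 2 fell (11.8%), beside 8.34% and 10.3% over all genes. Of 55 splicing regulators 7 rose and 7 fell (12.7% each), MBNL2 rising by 0.55.

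**Figure D4:**
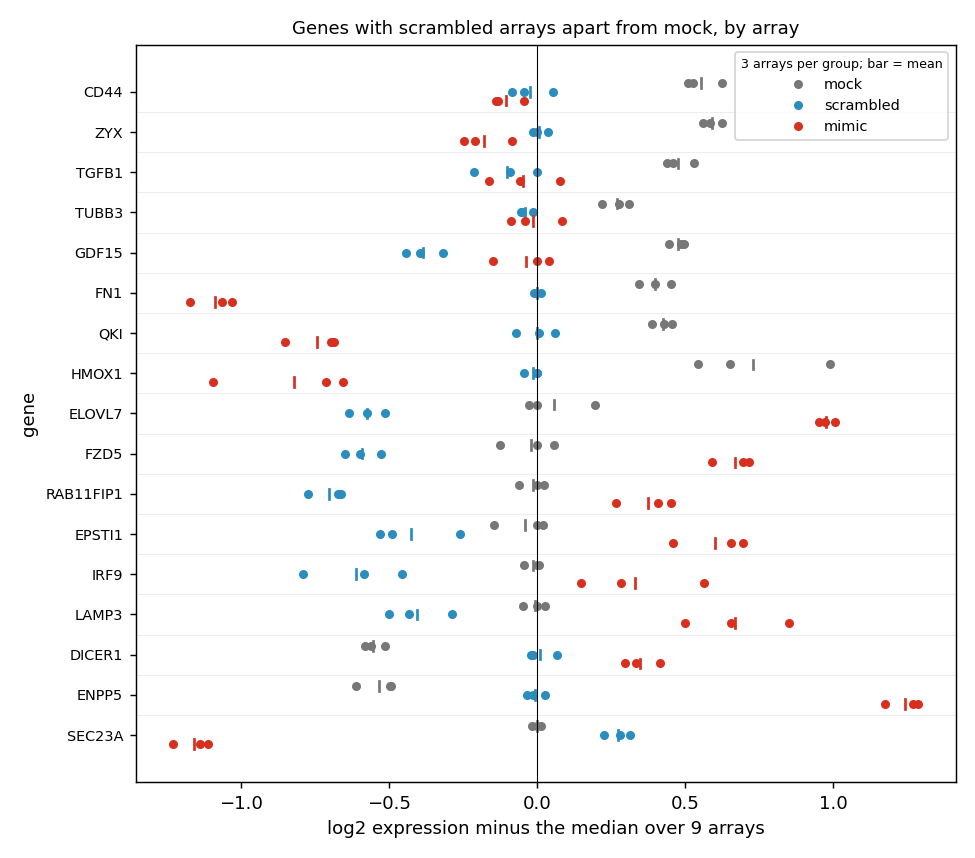
Arrays of 17 genes on the centred log2 scale, with group means as short bars, chosen after their values were seen to show where the scrambled arrays (blue) lie apart from mock (grey). They join mimic (red) below mock for CD44, TGFB1 and TUBB3, lie between for ZYX, FN1, QKI, HMOX1, DICER1 and ENPP5, lie below both for GDF15, and lie on the opposite side of mock from mimic for ELOVL7, FZD5, RAB11FIP1, EPSTI1, IRF9, LAMP3 and SEC23A.

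Side by side, the scrambled arrays thus stood in several places relative to mock and mimic, and since the comparisons share the mock arrays, each gene's own values are given without a measure of likeness. Beyond the genes above, RAB11FIP1, an effector in recycling endosomes, read 0.00, -0.06 and 0.02 on mock, -0.67, -0.66 and -0.77 on scrambled and 0.45, 0.27 and 0.41 on mimic arrays. FZD5 read -0.13, 0.00 and 0.06 on mock, -0.53, -0.60 and -0.65 on scrambled and 0.72, 0.59 and 0.70 on mimic arrays. LAMP3, an interferon-induced lysosomal membrane protein, read -0.05, 0.00 and 0.03 on mock, -0.43, -0.29 and -0.50 on scrambled and 0.85, 0.66 and 0.50 on mimic arrays. In each of these the scrambled arrays were the lowest and the mimic arrays the highest. The differences of scrambled from mock were -0.69, -0.57 and -0.40 (adjusted p = 0.000308, 0.000667 and 0.0163, limma), against 0.39, 0.69 and 0.68 for mimic. Under quantile normalization the mimic call of RAB11FIP1 was lost, at 0.33 (adjusted p = 0.117).

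Probe sets of 1 gene did not always move together, and the gene value rests on those in its highest level class. Of 2353 called genes with more than 1 probe set, 377 had every probe set called in the direction of the gene, and 43 had at least 1 called the opposite way. Over all genes, 79 had probe sets called in both directions. A mean of all probe sets would put ST6GALNAC5 at 0.66, OAF at -0.54, BACH1 at 0.21 and STK4 at -0.16. XBP1, a transcription factor of the unfolded protein response, had 1 probe set at 0.36 and 1 at -0.37, both called. STK4, a Hippo kinase, had a gene value of -0.50, with 1 of 7 probe sets called higher and 1 lower. PAX8, a Mullerian lineage factor retained by endometrial cancers, fell by 0.63 with 7 of 8 probe sets called lower, and it was also lower in scrambled than in mock, at -0.38 (adjusted p = 0.00393). The 1801 probe sets with several symbols and the 11721 with none stood outside the gene values, and among the latter 197 were called higher and 292 lower.

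**Figure D5:**
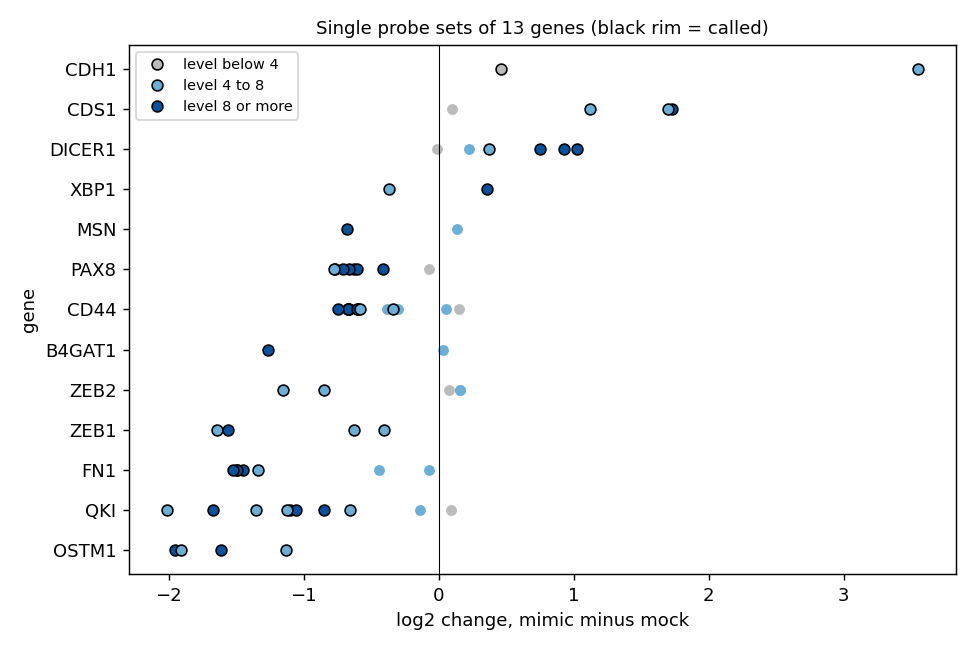
Points are single probe sets of 13 genes, placed by their log2 change from mock to mimic, shaded by level class and rimmed in black where called. The probe sets of OSTM1 and ZEB1 all lie to the left of 0, the called ones of ZEB2, B4GAT1 and MSN lie apart from others near 0, and those of XBP1 fall on both sides.

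The labelled cell type fitted its markers in part. Of 7 epithelial markers EPCAM, KRT8 and KRT18 had a level of 8 or more and the other 4, CDH1 among them, had 4 to 8. Of 6 endometrial and Mullerian markers PAX8 had 6 of 8 probe sets at 8 or more. PAX2, ESR1 and EMX2 reached 4 to 8, while SOX17 and the progesterone receptor PGR lay below 4. EMX2 was called lower in mimic than in mock, at -0.29, and was at -0.2 in scrambled against mock. Of 4 leukocyte markers, PTPRC, the pan-leukocyte CD45, was below 4 in all 5 probe sets, 2 reached 4 to 8 and ITGAM reached 8. Of 5 endothelial markers CDH5 and KDR lay below 4 and the other 3 reached 4 to 8. Of 6 stromal markers LUM lay below 4, 3 reached 4 to 8, and COL1A1 and THY1 reached 8. Of 17 leukocyte genes 2 were higher (11.8%) and 1 lower (5.88%) in mimic than in mock. Among 15 endothelial genes these counts were 0 and 2 (13.3%), and among 23 stromal and smooth muscle genes 1 (4.35%) and 5 (21.7%). The shares over all genes were 8.34% and 10.3%. COL1A1, a fibroblast collagen at 8 or more, fell by 0.41 and was at -0.36 in scrambled against mock. The part of these genes in the other results was not tested.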

How the data were processed

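The 9 samples of total RNA were labelled with an Affymetrix in vitro transcription kit, per the labels' protocols, and read on 1-colour arrays. The authors deposited log2 values for 54675 probe sets. The median over the 9 arrays was 0 in 100.0% of rows, so levels had been centred out. Probe summary and normalization are not given in the sources used here, and base 2 was taken from the size of the values. Of these probe sets, 41091 had 1 gene symbol (platform annotation, checked against RefSeq), giving 19775 genes. A gene's value was the mean of its probe sets in its highest level class, a stand-in for the planned probe set of highest mean, which centred values do not have. On 6000 simulated probe sets 98.0% of level classes were recovered. Ties at exactly 0 were present in over 1 array for 48.89% of probe sets and may lower the spread.

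A linear model with 1 mean per group was fitted over the 9 arrays by limma (version 3.58.1, R 4.3.3; lmFit and eBayes, two-sided, Benjamini-Hochberg). The median standard error was 0.059. Tested on simulated data for mimic against mock, with 200 of 19775 genes changed in each of 5 runs, the fit recovered 98%, 100% and 100% of changes of 0.5, 1 and 2, and 5.34% of its calls were false. The number of arrays limits the precision, and signal over background is unknown. The gene lists and members were chosen with earlier results of these data known. Named genes were the 12 largest rises and 12 largest falls without overlap, up to 5 called members per list with the largest change, and a fixed set of marker genes (CDH1, CDH2, VIM, ZEB1 and others); further genes in the text were chosen after their values were seen. Replicate numbers of mock and mimic were checked for pairing: deviations of same-numbered arrays correlated at -0.13, 0.12 and -0.15. Differently numbered arrays correlated at -0.15 to 0.25, so no pairing by number was seen. With 3 arrays per group this cannot exclude a shared culture or day. The alternatives tried cover the probe set rule, quantile normalization, level filters, the arrays in the fit and leaving out each array. Results on 1 gene list are not reported here.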

Additional observations from a re-analysis of the deposited data

How the results depend on the processing

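Across 15 alternatives the counts of called genes stayed within 1.5 times of 1650 higher and 2035 lower, and those of at least 1.5-fold changes within 1.5 times of 150 and 151, apart from these cases. With probe sets tested singly, 254 genes had a probe set at least 1.5-fold higher and 285 one at least 1.5-fold lower. With the test restricted to genes at a level of 8 or more, 65 were at least 1.5-fold higher, since fewer genes were tested. Leaving out each mock or mimic array in turn gave 1160 to 1433 genes higher and 1470 to 2087 lower, with 140 to 168 and 141 to 172 at least 1.5-fold changed. The published miR-200 targets held 25 to 37 lower and 1 to 5 higher members over the alternatives.

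No pairing by replicate number was seen (correlations of deviations -0.13, 0.12 and -0.15), which does not exclude a shared culture or day. A fit with the replicate number as a block called 1481 genes higher and 1840 lower, of which 1429 and 1795 were also called without the block, and at least 1.5-fold changes numbered 150 and 151.

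Of 171 called genes named in the text, 160 kept their call under every alternative that gave a value. The mean of all probe sets of a gene made 30 of the 171 changes over 1.5 times smaller, and turned XBP1 to -0.003. Without probe sets whose names end in _x_at, _s_at or _a_at, 6 of 136 lost the call. FN1 (-0.26), ZEB2 (-0.18), GDF15 (-0.07) and TGFB1 (-0.03) were among them, and the cause was not tested. With the first listed start of each gene in place of the outermost, a choice made after seeing the data, E-box matches were in 28.7% and 12.2% of genes at least 1.5-fold higher and lower, and in 19.6% of all higher genes. Counts over gene lists were less stable: 35 of 154 stayed within 1.5 times of their value under all alternatives. Level filters and the removal of probe sets by name left out members outright, and small counts pass this limit easily. That number therefore reflects the settings as well as the data. Signal over background is unknown, so the depth of low genes could not be judged.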
